A study of Homo sapiens with 14 samples.

Results

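The 10 genes described here encode the AP-1 transcription factor subunits FOS, FOSB, FOSL1, FOSL2, JUN, JUNB, JUND, and ATF3, together with EGR1 and MYC. They were found by gene name among the 19410 genes of the deposited table, all 10 were present, and all 10 passed the filter on low values. Their RNA was measured by RNA-Seq in MDA-MB-231 cells, an established human triple-negative breast cancer (TNBC) cell line. The groups were parental cells, SAP30 knockout cells (SAP30-KO1 and SAP30-KO2), SIN3A+SIN3B double knockout cells (SIN3A+SIN3B-DKO1 and SIN3A+SIN3B-DKO2, written SIN3A/3B-DKO1 and SIN3A/3B-DKO2 below), and MLL1 knockout cells (MLL1-KO1 and MLL1-KO2), with 2 libraries in each of the 7 groups. All cells were grown in DMEM with FBS and received no treatment. Each edited line was made with CRISPR/Cas9 and is a mixture of several selected knockout cells rather than a single clone, and the control of the sequencing was the parental line, not a line that had gone through editing and selection. The study asked which genes depend on SAP30, a subunit of the SIN3 histone deacetylase corepressor complex, on its scaffold proteins SIN3A and SIN3B, and on MLL1, a methyltransferase for lysine 4 of histone H3 that is encoded by KMT2A and listed as MLL in the table.

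AP-1 is a dimer of basic leucine zipper (bZIP) proteins. JUN proteins pair with each other or with FOS proteins, FOS proteins need a partner, and ATF3 pairs with JUN proteins and often represses. FOS, FOSB, JUN, JUNB, ATF3, and EGR1 are immediate early genes, transcribed within minutes of a growth or stress signal through MAP kinases and serum response factor (SRF), whereas FOSL1 and FOSL2 follow later and are held up by steady RAS and ERK signalling, and JUND is made more evenly. EGR1 is a zinc finger factor that binds GC-rich sites and is restrained by the NAB corepressors. MYC binds E-boxes with MAX, and the MXD proteins that compete for MAX recruit SIN3 to repress the same sites. In TNBC cells, FOSL1 and MYC are known for high expression.

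In GRCh37, FOS lies on chromosome 14 from 75745529 to 75748933, FOSB on chromosome 19 from 45971253 to 45978437, FOSL1 on chromosome 11 from 65659520 to 65668044, and FOSL2 on chromosome 2 from 28615315 to 28640184. JUN lies on chromosome 1 from 59242517 to 59249720, JUNB on chromosome 19 from 12902300 to 12904129, JUND on chromosome 19 from 18390504 to 18392432, ATF3 on chromosome 1 from 212738676 to 212794119 and EGR1 on chromosome 5 from 137801168 to 137804992. The 250 bases before the start of 4 genes are shown, JUN, JUNB, and EGR1 because they were higher in both SAP30-KO lines, and FOS because it is the prototype of the family. The sequences are from RefSeq (GRCh38.p14), and each was found letter for letter at the GRCh37 position given. Capitals mark the motifs found.
JUN, chr1:59249720-59249969, - strand: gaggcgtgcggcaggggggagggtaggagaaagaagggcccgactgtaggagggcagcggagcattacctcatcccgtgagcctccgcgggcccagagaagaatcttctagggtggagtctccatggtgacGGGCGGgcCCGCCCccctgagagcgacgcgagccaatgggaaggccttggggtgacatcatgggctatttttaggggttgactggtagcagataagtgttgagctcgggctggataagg
JUNB, chr19:12902050-12902299, + strand: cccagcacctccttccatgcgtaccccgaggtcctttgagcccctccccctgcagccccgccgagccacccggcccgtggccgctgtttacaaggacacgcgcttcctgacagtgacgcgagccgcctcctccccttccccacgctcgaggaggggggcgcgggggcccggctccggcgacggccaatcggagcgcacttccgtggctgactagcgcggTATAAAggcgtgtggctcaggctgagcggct
EGR1, chr5:137800918-137801167, + strand: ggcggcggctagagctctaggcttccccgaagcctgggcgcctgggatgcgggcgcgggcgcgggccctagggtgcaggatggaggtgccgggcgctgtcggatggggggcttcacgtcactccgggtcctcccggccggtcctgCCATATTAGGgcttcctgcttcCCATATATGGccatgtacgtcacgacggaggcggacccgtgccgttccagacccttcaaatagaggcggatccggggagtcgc
FOS, chr14:75745281-75745530, + strand: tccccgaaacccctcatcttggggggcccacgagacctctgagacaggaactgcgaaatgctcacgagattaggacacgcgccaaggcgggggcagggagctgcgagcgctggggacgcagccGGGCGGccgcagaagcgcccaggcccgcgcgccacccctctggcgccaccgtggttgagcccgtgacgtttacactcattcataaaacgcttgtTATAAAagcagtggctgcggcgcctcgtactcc
The motifs searched on both strands, over these bases and the 50 that follow, were the AP-1 site TGACTCA, the cyclic AMP response element TGACGTCA, the E-box CACGTG, the EGR sites GCGTGGGCG and GCGGGGGCG, the CArG box bound by SRF, the GC box GGGCGG, and the TATA box TATAAA. EGR1 held 2 CArG boxes, CCATATTAGG beginning 105 bases and CCATATATGG beginning 83 bases before the start. A CArG box was found in 1.29% of the 35116 promoters of the same length in the table. FOS held a TATA box 33 bases and JUNB 31 bases before the start, a motif in 11.5% of promoters, and JUN held a GC box on each strand, a motif in 45% of promoters. Of the other members, JUND had the cyclic AMP response element 200 bases before its start, found in 1.85% of promoters, and FOSL2 the AP-1 site at base 5 after its start, found in 4.95%. These letters are descriptions of the windows, and no binding was measured here.

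Libraries held 18415036 to 23162682 recovered reads. Of the genes fixed as markers of MDA-MB-231 cells, VIM, CD44, ZEB1, MSN, CAV1, and AXL were at 53.7 TPM or above in every library, and SPARC was at most 0.902 TPM. Of the genes such cells should lack that are reported here, ESR1, PGR, and FOXA1 were at most 0.191 TPM, PTPRC at most 0.603, and CDH1 at most 1.25, whereas GATA3 (8.16 to 17.3 TPM), EPCAM (5.33 to 19.2), ERBB3 (1.73 to 6.997), and PECAM1 (1.55 to 3.98) were detected in every library, and CDH1 and EPCAM were called lower in all 6 lines. SAP30 RNA was 78.9 and 82.8 TPM in parental and 2.75 to 4.96 TPM in the SAP30-KO libraries. SIN3B RNA went from 75.1 and 77.4 TPM in parental to 43.5 to 50.2 TPM in the SIN3A/3B-DKO libraries, but SIN3A RNA was higher there (55.1 to 62.5 TPM against 43.1 and 45.4), so SIN3A/3B-DKO stands for libraries labelled so. MLL RNA was 49.0 and 56.7 TPM in parental, 15.8 to 27.7 TPM in the MLL1-KO libraries, and also lower, 23.0 to 35.4 TPM, in the SAP30-KO libraries. The 2 libraries of SIN3A/3B-DKO2 stood further apart than those of any other group, at a chi-square of 7.66 for each degree of freedom against 1.46 to 3.65 in the other 6 groups, and the values of the 10 genes without either of them are given below.

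Among the FOS family, FOSL1 was by far the most abundant, and its TPM was lower in SAP30-KO and higher in MLL1-KO cells while that of FOSL2 was higher and lower. The lower FOSL1 level in SAP30-KO did not hold relative to the genes around it, as given below. In TPM, the abundance of transcripts scaled to gene length and library size, FOSL1 was 420.5 and 413 in parental, 342 and 322 for SAP30-KO1, 355 and 343 for SAP30-KO2, 511 and 519 for SIN3A/3B-DKO1, 431 and 404 for SIN3A/3B-DKO2, 621 and 615 for MLL1-KO1, and 679.8 and 708.5 for MLL1-KO2. The SAP30-KO libraries lay below both parental libraries, those of SIN3A/3B-DKO1 and MLL1-KO lay above, and those of SIN3A/3B-DKO2 lay on either side. The log2 fold change from parental was -0.33 for SAP30-KO1, -0.26 for SAP30-KO2, 0.30 for SIN3A/3B-DKO1, 0.00 for SIN3A/3B-DKO2, 0.57 for MLL1-KO1, and 0.73 for MLL1-KO2 (standard error 0.04, on log2(TPM + 0.5)). A gene was called where its adjusted p from limma was under 0.05 and its change at least 1.5-fold, so FOSL1 was called in MLL1-KO2 alone (adjusted p = 3.86e-08), while the change in MLL1-KO1 was 1.48-fold (adjusted p = 3.5e-07) and that in the SAP30-KO lines 1.26-fold and 1.19-fold lower (adjusted p = 4.3e-05 and 0.000262). FOSL1 differed between the lines of each of 2 genotypes, by 0.30 between SIN3A/3B-DKO1 and SIN3A/3B-DKO2 (adjusted p = 0.000899) and by 0.17 between MLL1-KO2 and MLL1-KO1 (adjusted p = 0.00564). The 51 genes around FOSL1 on chromosome 11 had a median log2 change of -0.45 for SAP30-KO1, -0.40 for SAP30-KO2, and 0.26 for MLL1-KO2. With that running median subtracted from every library, the log2 change of FOSL1 turned direction in the SAP30-KO lines, reaching 0.12 and 0.14 in lines 1 and 2 (adjusted p = 0.0116 and 0.00451 from limma), and in MLL1-KO2 it was 0.47 and no longer passed the fold minimum.

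FOSL2, the other late FOS family member, was 97.3 and 94.8 TPM in parental, 132 and 127 for SAP30-KO1, 128 and 124 for SAP30-KO2, 122 and 121 for SIN3A/3B-DKO1, 126 and 122 for SIN3A/3B-DKO2, 59.4 and 59.7 for MLL1-KO1, and 65.8 in each library of MLL1-KO2. Every SAP30-KO and SIN3A/3B-DKO library was above both parental libraries, and every MLL1-KO library was below them. The log2 fold change was 0.43 and 0.39 for the SAP30-KO lines and 0.34 and 0.37 for the SIN3A/3B-DKO lines, each past adjusted p under 0.05 but short of 1.5-fold, and within these 4 groups none was distinguished from the next in the order of levels (adjusted p = 0.647 to 0.657 from limma). FOSL2 fell by 0.69 in MLL1-KO1 (standard error 0.03, adjusted p = 2.64e-08), where it was called lower, and its log2 fold change was -0.54 for MLL1-KO2 (adjusted p = 1.49e-07), which is 1.46-fold lower. An antisense gene, FOSL2-AS1, overlaps 2233 bases of FOSL2, and the strand setting of the read counting is not given in the sources used here. The ratio of FOSL1 to FOSL2 TPM was 4.32 and 4.36 in the parental libraries, 2.54 to 2.59 for SAP30-KO1, 2.76 to 2.78 for SAP30-KO2, 4.18 to 4.27 for SIN3A/3B-DKO1, 3.32 to 3.42 for SIN3A/3B-DKO2, 10.3 to 10.5 in MLL1-KO1, and 10.3 to 10.8 in MLL1-KO2. FOSL1 accordingly made up 80.3% to 80.4% of the summed FOS family TPM in parental, 70.7% to 72.6% in SAP30-KO, and 89.5% to 90.5% in MLL1-KO libraries.

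FOS and FOSB, the classical immediate early members, made up at most 1.16% and 0.634% of the FOS family TPM in any library. FOS was 3.22 and 4.43 TPM in parental (50 and 67 recovered reads), 5.41 and 4.36 for SAP30-KO1, 4.10 and 4.36 for SAP30-KO2, 6.11 and 6.64 for SIN3A/3B-DKO1, 4.62 and 3.94 for SIN3A/3B-DKO2, 7.67 and 7.96 for MLL1-KO1, and 7.05 and 5.81 for MLL1-KO2. Its SIN3A/3B-DKO1 and MLL1-KO libraries were above both parental libraries, and the other groups overlapped parental. FOS rose in SIN3A/3B-DKO1 (log2 fold change 0.68), MLL1-KO1 (0.96), and MLL1-KO2 (0.69), with a standard error of 0.15 and a largest adjusted p of 0.00295 from limma. No 2 groups next to each other in the order of FOS levels were distinguished (smallest adjusted p = 0.0839). Without parental replicate 1, the lower of the parental libraries, the changes in SIN3A/3B-DKO1 and MLL1-KO2 were each 0.48 and under the fold minimum.

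FOSB was 2.39 and 1.32 TPM in parental (65 and 35 reads), 2.10 and 1.84 for SAP30-KO1, 1.97 and 1.81 for SAP30-KO2, 3.59 and 4.05 for SIN3A/3B-DKO1, 2.83 and 2.06 for SIN3A/3B-DKO2, 4.39 and 4.35 for MLL1-KO1, and 3.09 and 3.13 for MLL1-KO2. As for FOS, the SIN3A/3B-DKO1 and MLL1-KO libraries were above both parental libraries and the other groups overlapped them. FOSB rose in SIN3A/3B-DKO1 (0.91), MLL1-KO1 (1.08), and MLL1-KO2 (0.65), with a standard error of 0.20 and a largest adjusted p of 0.0138 from limma. Without parental replicate 2 the change was 0.58 for SIN3A/3B-DKO1 and 0.32 for MLL1-KO2 (adjusted p = 0.137), which ended both calls. FOSB lies wholly within ERCC1, a DNA repair gene on the opposite strand that was at 51.4 to 84.1 TPM and had log2 fold changes of -0.32 to 0.31 in the 6 lines, so that reads of the pair may not be told apart.

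JUN rose in more lines than any FOS gene, and rose most in MLL1-KO cells. It was 108 and 106 TPM in parental, 172 and 162.5 for SAP30-KO1, 183 and 179 for SAP30-KO2, 141 and 138 for SIN3A/3B-DKO1, 133 and 139 for SIN3A/3B-DKO2, 232 and 230.4 for MLL1-KO1, and 275.5 and 274 for MLL1-KO2. Every library of every edited line was above both parental libraries. The log2 fold change was 0.64 for SAP30-KO1, 0.76 for SAP30-KO2, 1.11 for MLL1-KO1, and 1.35 for MLL1-KO2 (standard error 0.03, largest adjusted p = 1.23e-07 from limma), all called. For the SIN3A/3B-DKO lines it was 0.38 and 0.34 (adjusted p = 5.22e-06 and 1.4e-05), or 1.30-fold and 1.27-fold, short of the minimum. In the order of levels, MLL1-KO2 exceeded MLL1-KO1 by 0.25, MLL1-KO1 exceeded SAP30-KO2 by 0.35, SAP30-KO1 exceeded SIN3A/3B-DKO1 by 0.26, and SIN3A/3B-DKO2 exceeded parental by 0.34, while the lines of SAP30-KO (adjusted p = 0.21) and of SIN3A/3B-DKO (adjusted p = 0.462) were not distinguished. The 51 genes around JUN on chromosome 1 had a median of 0.26 for SAP30-KO1, 0.18 for SAP30-KO2, -0.25 for MLL1-KO1, and -0.27 for MLL1-KO2. With the running median of the neighbours subtracted, JUN in SAP30-KO1 and SAP30-KO2 was at 0.38 and 0.57 and lost the call, and in the MLL1-KO lines it kept it.

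JUNB, which competes with JUN for FOS partners and is a weaker activator on single sites, was called higher in all but the SIN3A/3B-DKO2 line. It was 56.2 and 54.9 TPM in parental, 88.9 and 89.4 for SAP30-KO1, 88.5 and 91.9 for SAP30-KO2, 95.9 and 101 for SIN3A/3B-DKO1, 73.4 and 58.7 for SIN3A/3B-DKO2, 107 and 111 for MLL1-KO1, and 123 and 124 for MLL1-KO2. Again every library of every edited line was above both parental libraries, but the 2 SIN3A/3B-DKO2 libraries were far apart and the lower was close to parental. JUNB was called higher in 5 lines, with log2 fold changes of 0.68 and 0.69 for the SAP30-KO lines, 0.82 for SIN3A/3B-DKO1, and 0.96 and 1.15 for the MLL1-KO lines (standard error 0.08, largest adjusted p = 3.49e-05 from limma), and was at 0.24 for SIN3A/3B-DKO2 (adjusted p = 0.0262). Within these 5 lines, none was distinguished from the next in the order of levels (smallest adjusted p = 0.0853), and the lowest of them, SAP30-KO1, was above SIN3A/3B-DKO2 by 0.44 (adjusted p = 0.00148). JUNB lies wholly within HOOK2 on the opposite strand, which was at 12.1 to 21.2 TPM and was called higher in SIN3A/3B-DKO1 alone (0.64), with 0.05 to 0.51 in the other lines.

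JUND was the most abundant JUN gene and was called in 0 of the 6 lines by limma. It was 282 and 271 TPM in parental, 321 and 306 for SAP30-KO1, 357.5 and 361 for SAP30-KO2, 314 and 321 for SIN3A/3B-DKO1, 293 and 277 for SIN3A/3B-DKO2, 277 and 295 for MLL1-KO1, and 307 and 327 for MLL1-KO2. Its libraries overlapped parental in SIN3A/3B-DKO2 and MLL1-KO1 and were above it elsewhere. The log2 fold change was 0.18, 0.38, 0.20, 0.04, 0.05, and 0.20 in the order given (standard error 0.04). It passed adjusted p under 0.05 in 4 lines, the same number as at an unadjusted p under 0.05, voom called it in 0, and the largest change, in SAP30-KO2, was 1.30-fold. JUND made up 62.7% to 63.2% of the summed JUN family TPM in parental and 43.5% to 46.4% in the MLL1-KO libraries, where JUN made up 36.2% to 39.0% against 24.2% to 24.6% in parental.

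**Figure D1:**
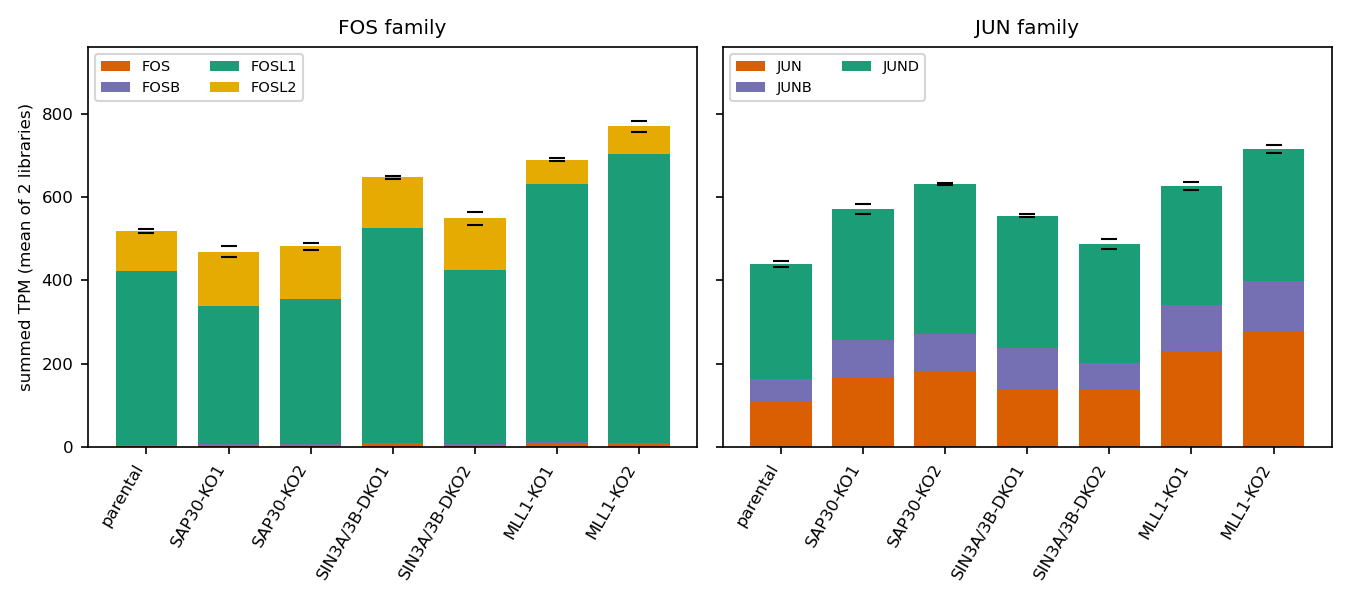
Stacked bars of the summed TPM (y axis) of the FOS family on the left and the JUN family on the right in each of the 7 groups (x axis), as the mean of 2 libraries, with a dash for the sum in each library. The FOS family sum was 514 to 523 TPM in parental and 756 to 783 in MLL1-KO2, and the JUN family sum was 432 to 446 TPM in parental and 706 to 725 in MLL1-KO2. JUN and JUNB took up most of that JUN family difference. The mean of JUND was 276 TPM in parental, 317 in MLL1-KO2, and 359 in SAP30-KO2.

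ATF3, a stress-responsive bZIP protein, was the member with the largest opposing changes, higher in SIN3A/3B-DKO1 and lower in MLL1-KO2. It was 7.10 and 7.52 TPM in parental, 7.32 and 6.99 for SAP30-KO1, 6.26 and 5.85 for SAP30-KO2, 11.7 and 13.6 for SIN3A/3B-DKO1, 11.95 and 8.96 for SIN3A/3B-DKO2, 5.21 and 6.41 for MLL1-KO1, and 2.49 and 4.16 for MLL1-KO2. The SIN3A/3B-DKO libraries were all above parental, the MLL1-KO and SAP30-KO2 libraries were all below, and SAP30-KO1 overlapped it. The log2 fold change was 0.75 for SIN3A/3B-DKO1 (standard error 0.19, adjusted p = 0.00694 from limma) and ATF3 fell by 1.06 in MLL1-KO2 (adjusted p = 0.000584), from 130 and 134 recovered reads in parental to 43 and 76. It was at 0.48 for SIN3A/3B-DKO2 (adjusted p = 0.0625), -0.31 for MLL1-KO1 (0.184), -0.25 for SAP30-KO2 (0.301), and -0.03 for SAP30-KO1 (0.918), and MLL1-KO2 was lower than MLL1-KO1 by 0.75 (adjusted p = 0.00944). Without SIN3A/3B-DKO1 replicate 2 the change there was 0.64 with an adjusted p of 0.054, and without SIN3A/3B-DKO2 replicate 2 ATF3 was called in SIN3A/3B-DKO2 (0.67, adjusted p = 0.0303). Of 10 stress response genes, 6 were called higher in SIN3A/3B-DKO1 (against 7.76% of all genes) and 1 lower, and 2 were higher and 1 lower in SIN3A/3B-DKO2. In MLL1-KO1 3 were higher and 0 lower, and in MLL1-KO2 2 were higher and 2 lower. The median log2 fold change of these stress genes was 0.67 for SIN3A/3B-DKO1, 0.24 for SIN3A/3B-DKO2, 0.31 for MLL1-KO1, and -0.17 for MLL1-KO2. In SIN3A/3B-DKO1 their summed level was 3043 to 3195 TPM against 2040 to 2057 in parental, and 2169 to 2754 in SIN3A/3B-DKO2 and 1699 to 1957 in the MLL1-KO libraries. Much of that sum is HSPA5, an endoplasmic reticulum chaperone named after its values were seen, with a mean of 950.8 TPM in parental, 1723 in SIN3A/3B-DKO1, and 642 in MLL1-KO2. The part of these genes in the ATF3 result was not tested.

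EGR1 rose most in SAP30-KO cells. It was 6.52 and 5.19 TPM in parental (147 and 114 recovered reads), 13.3 and 14.4 for SAP30-KO1, 10.95 and 11.02 for SAP30-KO2, 8.33 and 8.82 for SIN3A/3B-DKO1, 7.01 and 6.11 for SIN3A/3B-DKO2, 8.84 and 9.61 for MLL1-KO1, and 6.78 and 6.39 for MLL1-KO2. The second line of SIN3A/3B-DKO and of MLL1-KO overlapped parental, and the other lines were above it. The log2 fold change was 1.18 for SAP30-KO1 and 0.86 for SAP30-KO2, or 2.27-fold and 1.82-fold (standard error 0.11, adjusted p = 5.34e-06 and 5.51e-05 from limma), and 0.62 for MLL1-KO1 (adjusted p = 0.000436). It was at 0.52 for SIN3A/3B-DKO1 (adjusted p = 0.00171), 0.16 for SIN3A/3B-DKO2 (0.248), and 0.16 for MLL1-KO2 (0.199). In the order of levels, SAP30-KO1 and SAP30-KO2 were not distinguished (difference 0.32, adjusted p = 0.254), nor were SAP30-KO2 and MLL1-KO1 (0.24, adjusted p = 0.0759). The call in MLL1-KO1 ended without parental replicate 2 (0.47), without MLL1-KO1 replicate 2 (0.56), and with a pseudocount of 1 (0.58), while both SAP30-KO calls held in every alternative tried with the 1.5-fold minimum, and at a 2-fold minimum that of SAP30-KO1 held and that of SAP30-KO2 did not. The neighbours of EGR1 on chromosome 5 had medians of -0.15 to 0.04 in the 6 lines. The 2 CArG boxes shown above lie before the start of this gene, and the log2 fold change of SRF RNA itself was 0.01 to 0.25. The part of SRF in the EGR1 levels was not tested.

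MYC was high in every library, and its TPM was below parental in SAP30-KO and above it in all others. It was 186 and 188 TPM in parental, 164 and 165 for SAP30-KO1, 160.4 and 155 for SAP30-KO2, 284 and 306 for SIN3A/3B-DKO1, 234 and 195 for SIN3A/3B-DKO2, 246 and 259 for MLL1-KO1, and 238 and 248.8 for MLL1-KO2. No library of an edited line lay within the parental range. MYC was called higher in SIN3A/3B-DKO1 alone (log2 fold change 0.66, standard error 0.07, adjusted p = 1.87e-05 from limma). It was at 0.43 and 0.38 for MLL1-KO1 and MLL1-KO2 (adjusted p = 0.000304 and 0.000653), 0.19 for SIN3A/3B-DKO2 (0.0404), -0.18 for SAP30-KO1 (0.0521), and -0.24 for SAP30-KO2 (0.0141). The 51 genes around MYC on chromosome 8 had a median of 0.19 to 0.27 in all 6 lines. With the running median subtracted, MYC in SIN3A/3B-DKO1 was at 0.46 and no longer called, and its change in SIN3A/3B-DKO2 turned direction. An antisense gene, CASC11, overlaps 3554 bases of MYC.

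**Figure D2:**
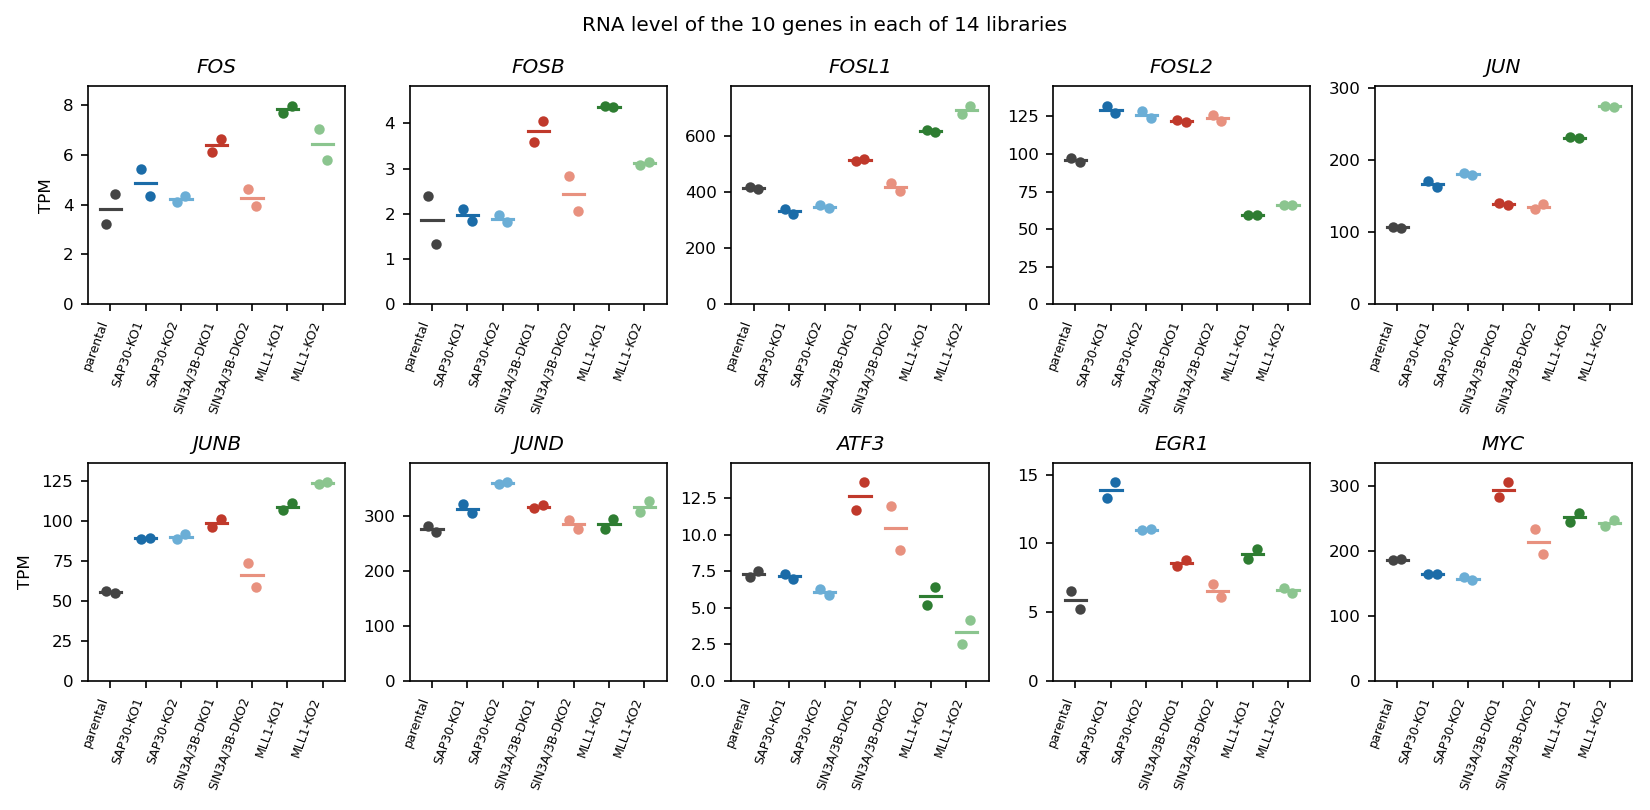
TPM (y axis, from 0, a scale for each gene) of the 10 genes in each of the 14 libraries (points) of the 7 groups (x axis), with a line at the mean of 2 libraries. JUN and JUNB were above parental in every edited line, FOSL2 was below parental only in the MLL1-KO lines, and FOSL1 ran opposite to FOSL2 between SAP30-KO and MLL1-KO.

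Counted over the 10 genes, 3 were called higher in SAP30-KO1 and the same 3 in SAP30-KO2 (JUN, JUNB, and EGR1), where of all 13540 genes tested 7.80% and 7.44% were called higher, 7.86% and 8.12% lower, and 15.7% and 15.6% in either direction. In SIN3A/3B-DKO1, 5 were higher (FOS, FOSB, JUNB, ATF3, and MYC), against 7.76% of all genes, with 8.66% lower and 16.4% in either direction. In SIN3A/3B-DKO2, limma called 0, against 13.6% of all genes in either direction (6% higher and 7.56% lower), with 4 at adjusted p under 0.05 at any fold (FOSL2, JUN, JUNB, and MYC), 5 at an unadjusted p under 0.05, and 0 by voom on the recovered reads. In MLL1-KO1, 5 were higher (FOS, FOSB, JUN, JUNB, and EGR1) and FOSL2 was lower, against 6.89% and 16.3% (23.2% in either direction). In MLL1-KO2, 5 were higher (FOS, FOSB, FOSL1, JUN, and JUNB) and ATF3 was lower, against 10.2% and 14.9% (25.2% in either direction). At adjusted p under 0.05 and any fold, 6 and 7 of the 10 passed in the SAP30-KO lines against 51% and 51.7% of all genes, 10 and 4 in the SIN3A/3B-DKO lines against 56.0% and 49.6%, and 8 and 9 in the MLL1-KO lines against 60.5% and 64.2%. The median log2 fold change of the 10 genes was 0.25 and 0.26 for the SAP30-KO lines, 0.59 and 0.22 for the SIN3A/3B-DKO lines, and 0.59 and 0.52 for the MLL1-KO lines, where that of all genes tested was 0.03 and 0.01, -0.00 and 0.01, and -0.09 and -0.04. All of these comparisons used the same 2 parental libraries. Because the edited lines are mixtures of cells, a change in the share of cells that express a gene and a change in RNA per cell cannot be told apart. The labels do not say that replicates were separate cultures, so p-values measure only the spread between these libraries.

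**Figure D3:**
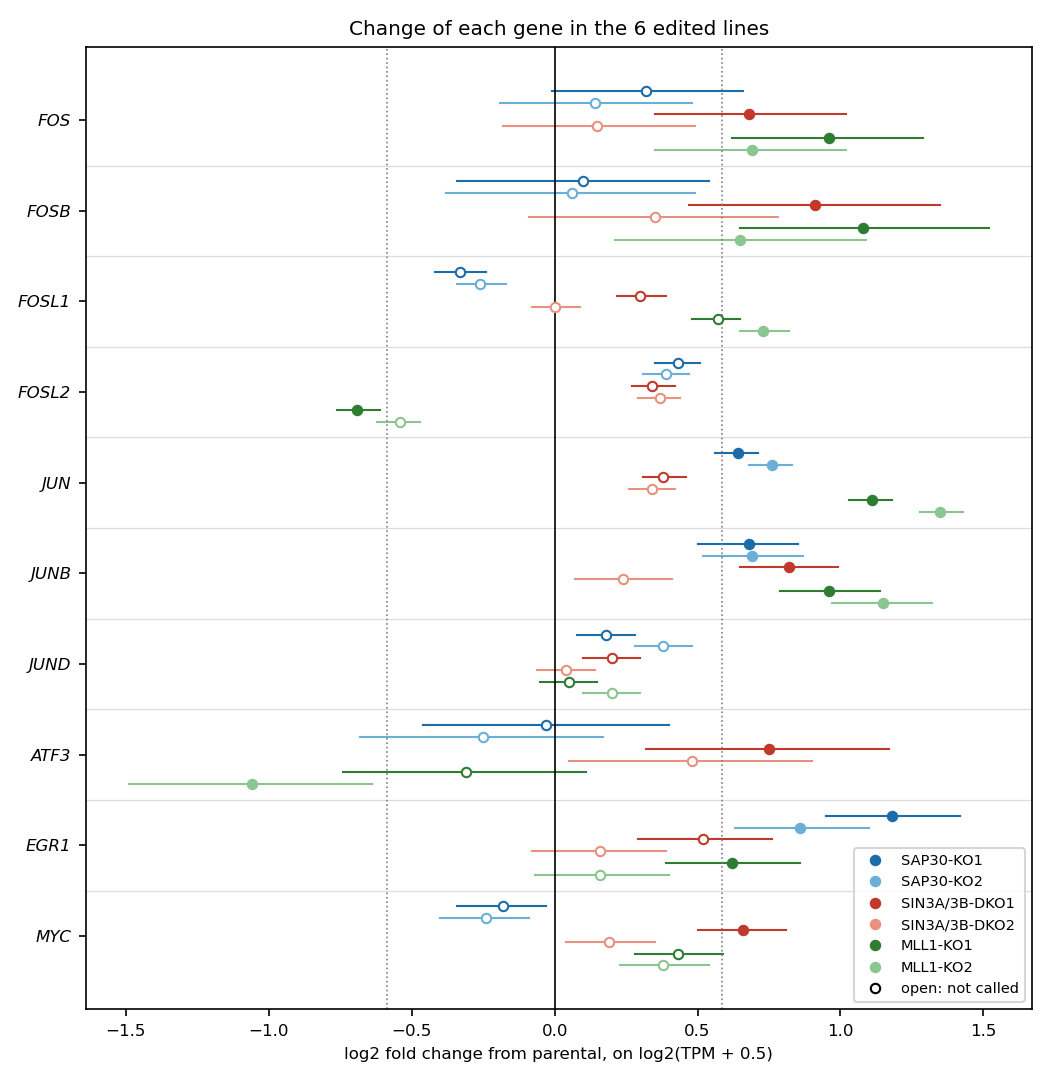
Log2 fold change from parental on log2(TPM + 0.5) (x axis) of the 10 genes (y axis) in the 6 edited lines (colours), with bars for the 95% confidence interval from limma, filled points for genes called, and dotted lines at a 1.5-fold change. JUN and JUNB lay right of 0 in every line, and the FOSL2 points of the MLL1-KO lines lay on the other side of 0 from those of the other lines.

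The lines of a genotype were also compared with each other. For the counts at any fold or at an unadjusted p between lines, the share of all genes is not given here, so those counts stand without a background. Between SAP30-KO2 and SAP30-KO1, limma called 0 of the 10 genes (0.148% of all genes, 0.0739% higher and 0.0739% lower), with 0 at adjusted p under 0.05 at any fold, 3 at an unadjusted p under 0.05, and 0 by voom. Between SIN3A/3B-DKO2 and SIN3A/3B-DKO1, limma also called 0 (2.23% of all genes, 1.01% higher and 1.22% lower), but 6 passed adjusted p under 0.05 and 7 an unadjusted p under 0.05, and each of the 6 was lower in SIN3A/3B-DKO2: JUNB by a log2 difference of -0.58, FOS -0.53, MYC -0.46, EGR1 -0.36, FOSL1 -0.30, and JUND -0.16. Voom called 3 genes lower there, FOS, FOSB, and JUNB, of which FOSB was not among the 6 (adjusted p = 0.0901 from limma). Without SIN3A/3B-DKO2 replicate 1, 4 genes were called lower (FOS, FOSB, JUNB, and MYC), without SIN3A/3B-DKO1 replicate 1 there was 1, and without SIN3A/3B-DKO2 replicate 2 there was 0. Between MLL1-KO2 and MLL1-KO1, ATF3 was called (10.4% of all genes, 7.15% higher and 3.27% lower), with 6 of the 10 genes at adjusted p under 0.05 at any fold and 7 at an unadjusted p under 0.05, and the call of ATF3 ended without MLL1-KO1 replicate 2 or MLL1-KO2 replicate 1.

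Between genotypes, the mean of both lines of each was compared. FOSL1 was higher in MLL1-KO than in SAP30-KO by 0.94 on the log2 scale and FOSL2 was lower, with a difference of -1.02 (adjusted p = 2.31e-10 and 4.79e-11 from limma, standard errors 0.03 and 0.02). FOSB (0.79), MYC (0.62), and FOS (0.59) were also higher and EGR1 (-0.63) lower, 6 of the 10 genes against 19.8% of all genes (6.34% higher and 13.5% lower). Past adjusted p under 0.05 but short of the fold minimum, JUN (0.53, adjusted p = 7.11e-09 from limma) and JUNB (0.37) were higher and ATF3 (-0.55) and JUND (-0.16) lower. The neighbours of JUN went the other way, at 0.26 and 0.18 in the SAP30-KO lines and -0.25 and -0.27 in the MLL1-KO lines against parental. With the running median of the neighbours subtracted, the difference of FOSL1 was 0.33 and was no longer called, and that of FOSL2 was -0.85 and was. EGR1 lost its call with that subtraction (-0.47), with quantile normalization (-0.45), and with median-ratio scaling (-0.53). FOS lost its call with a pseudocount of 1 (0.54) and without any of 4 libraries, SAP30-KO1 replicate 2 (0.52), SAP30-KO2 replicate 1 (0.57), MLL1-KO1 replicate 2 (0.58), or MLL1-KO2 replicate 1 (0.52). Between MLL1-KO and SIN3A/3B-DKO, JUN was higher in MLL1-KO by 0.87, and ATF3 (-1.30) and FOSL2 (-0.97) were lower, 3 of 10 against 19.9% (6.91% higher and 13% lower). Between SIN3A/3B-DKO and SAP30-KO, ATF3 (0.75) and MYC (0.64) were higher in SIN3A/3B-DKO and EGR1 (-0.68) was lower, 3 of 10 against 7.47% (3.25% higher and 4.22% lower). MYC lost that call without SIN3A/3B-DKO2 replicate 1 (0.57). JUNB and JUND were not called between any 2 genotypes. JUNB was higher in MLL1-KO than in SIN3A/3B-DKO by 0.53 (adjusted p = 7.58e-06 from limma), short of the fold minimum, as were FOSL1 (0.50) and FOS (0.40). More genes were called between these genotypes under some alternatives, given below. Quantile normalization moved the median of all genes in MLL1-KO1 by 0.13, and under it 1 change of the 10 genes from parental turned direction, FOSL1 in SIN3A/3B-DKO2 (from 0.00 to -0.03).

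**Figure D4:**
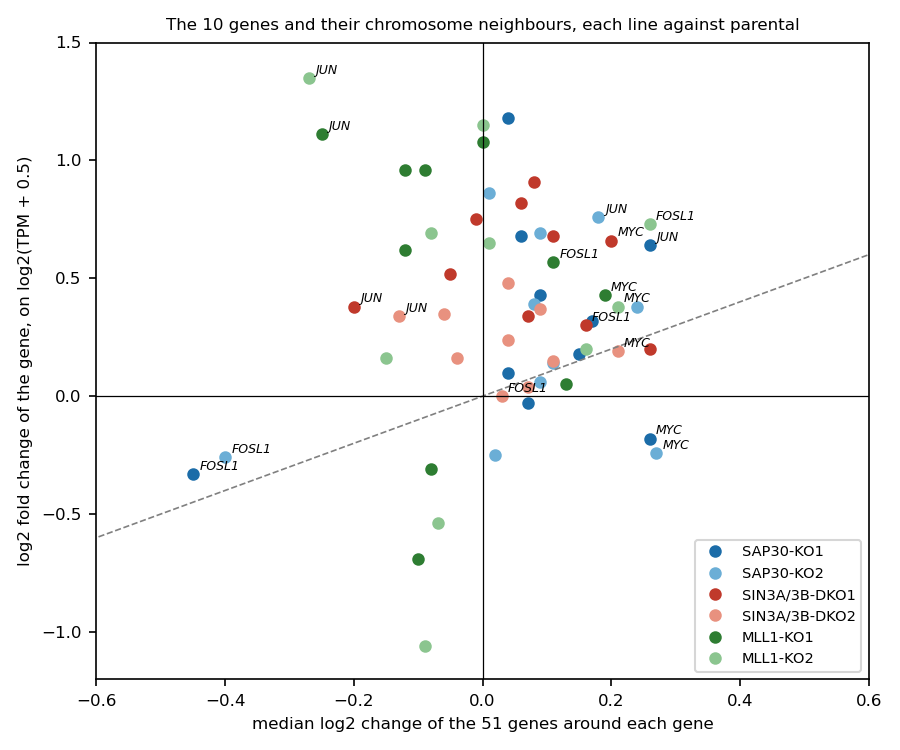
Log2 fold change of each of the 10 genes from parental (y axis) against the median log2 change of the 51 genes around it on its chromosome (x axis, a narrower scale), in the 6 lines (colours), with a dashed line where they are equal. FOSL1 in the SAP30-KO lines lay near the dashed line, whereas JUN in the MLL1-KO lines lay far above neighbours that were lower.

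Over the 14 libraries, and as a description only, since all of these libraries share their depth range and 7 groups, JUN ran most closely with JUNB among the 10 genes (Pearson r = 0.87), FOSB with MYC (0.86), and FOSL1 against FOSL2 (-0.84). Among all genes tested, those most like JUN were TFAP2C, which encodes the transcription factor AP-2 gamma, and RAP2B (r = 0.99 each), and TFAP2C ran from 31.5 to 149 TPM. Those most like FOSL2 were MYEF2 and TOB1 (0.99 each), those most like FOSL1 were FAM89B and PRKCD (0.98 each), and those most like JUNB were SLC27A1 (0.97) and STARD8 (0.96). For ATF3 they were SEC23B (0.97), a component of vesicle coats that leave the endoplasmic reticulum, and PRR3 (0.96), and for MYC NUDT22 (0.96) and NDUFS8 (0.94). For FOS they were ZC3H12A (0.94), an RNase that degrades inflammatory mRNAs, and EIF4EBP1 (0.90), for FOSB C10orf2 and AUP1 (0.94 each), and for EGR1 UQCRH and RABGGTB (0.92 each). FAM89B lies on chromosome 11 from 65339820 to 65341669, the chromosome of FOSL1 (65659520 to 65668044), whereas PRKCD lies on chromosome 3. NUDT22 and NDUFS8 lie on chromosome 11 as well, and MYC on chromosome 8. The part of chromosome position in these correlations was not tested.

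The partners and regulators of the 10 genes were examined as lists, which share some genes (NAB2 stands in 2 lists). Of 23 other bZIP partners tested, 3, 3, 5, 3, 2, and 5 were called higher in the SAP30-KO, SIN3A/3B-DKO, and MLL1-KO lines (the line numbered 1 before 2 in each), and the last 3 lines had 2 lower each. CEBPB, which pairs with FOS and ATF proteins, rose in 5 lines, from 63.2 and 60.01 TPM in parental to 88.4 to 119 TPM in those lines (log2 fold changes 0.59 to 0.94), and was at 0.47 for SIN3A/3B-DKO2. CREM, a CREB family factor, rose in 5 lines (0.60 to 0.71) and was at 0.40 for MLL1-KO1. BATF, a partner of JUN that represses AP-1, had 2 recovered reads in each parental library, 38 to 50 in the SAP30-KO libraries, and 0 in both SIN3A/3B-DKO2 libraries. JDP2, a JUN dimerization protein, fell by 1.43 and 0.84 in MLL1-KO1 and MLL1-KO2. Of 4 EGR family and NAB genes tested, EGR2 was called higher in 5 lines and EGR3 in 4, from few reads: EGR2 had 2 and 3 reads in parental and 20 to 27 in the SAP30-KO libraries, and EGR3 10 and 5 in parental and 20 to 30 in the SAP30-KO libraries. NAB2, itself an EGR target, rose in MLL1-KO2 (0.75) and was at 0.01 to 0.48 elsewhere, and NAB1 was at -0.40 to -0.20.

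Of 10 genes of the MYC, MAX, and MXD network tested, MLX, which pairs with MXD proteins in place of MAX, was called lower in all 6 lines, from 128 and 122 TPM to 69.3 to 82.5 (log2 fold changes -0.81 to -0.62). MXI1, a MYC antagonist that recruits SIN3, rose in SIN3A/3B-DKO1 (0.63) and MLL1-KO2 (0.75) and was at 0.47 to 0.58 in the other lines. MXD4 rose in SAP30-KO2 (0.59) and MLL1-KO2 (0.95), and MLXIPL rose in SAP30-KO1 (0.73). Of 6 SRF and cofactor genes tested, 1 was called, ELK3 in MLL1-KO2 (0.76). Of 26 MAP kinase pathway genes tested, 0 to 3 were called lower and 1 to 2 higher in a line. RPS6KA2, an ERK-activated ribosomal S6 kinase, rose in 5 lines (1.56 to 2.26) and was at 0.15 for MLL1-KO1, and the p38 kinases MAPK13 and MAPK11 were lower in 4 and 3 lines. The 4 lines with lower MAPK13 were those of SAP30-KO and SIN3A/3B-DKO (-1.46 to -0.68). MAP2K6 was lower in 3 lines (-0.79 to -0.77).

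Among 14 feedback inhibitors of MAP kinases tested, 5 were called lower in each MLL1-KO line, against 16.3% and 14.9% of all genes. Called higher were 2 in MLL1-KO1 and 5 in MLL1-KO2, against 6.89% and 10.2% of all genes. In the other lines 0 to 1 were lower and 1 to 2 higher. DUSP1, an immediate early phosphatase that switches off MAP kinases, was 73.2 and 71.1 TPM in parental, 36.7 and 39.7 for SAP30-KO1, 30.1 and 28.2 for SAP30-KO2, 78.2 and 82.5 for SIN3A/3B-DKO1, 60.3 and 49.0 for SIN3A/3B-DKO2, 20.7 in each library of MLL1-KO1, and 11.3 and 13.6 for MLL1-KO2. DUSP1 was called lower in the SAP30-KO and MLL1-KO lines, with log2 fold changes of -0.91, -1.29, -1.78, and -2.50, and JUN was called higher in the same lines. DUSP1 was not called in the SIN3A/3B-DKO lines (0.15 and -0.40). JUN was above parental in those lines too (0.38 and 0.34), short of the fold minimum. With the running median of its neighbours subtracted, JUN also lost its call in the SAP30-KO lines. The part of DUSP1 in the JUN levels was not tested. SPRY4, an inhibitor of RAS signalling induced by ERK, rose in 5 lines (0.59 to 1.15) and was at 0.39 for SIN3A/3B-DKO2. SPRY1 was lower in SIN3A/3B-DKO1 (-0.62), MLL1-KO1 (-1.40), and MLL1-KO2 (-1.02), and DUSP8 rose in the SIN3A/3B-DKO lines (1.18 and 1.04) and fell by 1.18 and 1.15 in the MLL1-KO lines.

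Of 25 other immediate early genes tested, 2, 3, 4, 4, 7, and 10 were higher and 3, 2, 0, 0, 4, and 4 lower in the SAP30-KO, SIN3A/3B-DKO, and MLL1-KO lines (the line numbered 1 before 2 in each) by limma, so calls went both ways in 4 of the 6 lines. PLK3 rose in all 6 lines (0.85 to 1.30 in 5 of them, most in MLL1-KO2) and RHOB in the SAP30-KO and MLL1-KO lines (0.66 to 1.08). PLK2 fell in these 4 lines, with changes of -1.12 to -0.63, and NR4A2, a nuclear receptor, with changes of -0.93 to -0.62. The summed level of the 28 listed genes in the table was 3386 to 3478 TPM in parental and 3300 to 3405 TPM in the SAP30-KO libraries. It was 3885 to 3891 TPM for SIN3A/3B-DKO1, 3558 to 3765 for SIN3A/3B-DKO2, 3345 to 3365 for MLL1-KO1, and 3607 to 3635 for MLL1-KO2.

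AP-1 target genes, 18 of which were tested, were called higher most often in the MLL1-KO lines, with 7 in MLL1-KO1 and 10 for MLL1-KO2 against 1 in each SAP30-KO line and 5 and 4 in the SIN3A/3B-DKO lines, and 3 were called lower in each MLL1-KO line, 3 and 4 in the SAP30-KO lines, and 1 and 2 in the SIN3A/3B-DKO lines. Of all genes, 6.89% and 10.2% were called higher in the MLL1-KO lines, 7.80% and 7.44% in the SAP30-KO lines, and 7.76% and 6% in the SIN3A/3B-DKO lines, the background of the higher counts of every list. The background of the lower counts was 16.3% and 14.9% in the MLL1-KO lines, 7.86% and 8.12% in the SAP30-KO lines, and 8.66% and 7.56% in the SIN3A/3B-DKO lines. The median log2 fold change of the AP-1 target genes was 0.50 for MLL1-KO1 and 0.91 for MLL1-KO2 and 0.09 to 0.29 in the other lines. EREG, an EGF receptor ligand, was called lower in all 6 lines, from 20.5 and 19.8 TPM to 0.541 to 5.24 TPM, and AREG, another such ligand, was lower in 4 lines. IL6 rose in the SAP30-KO and SIN3A/3B-DKO lines (0.75 to 1.51) and fell by 1.30 in MLL1-KO2. MMP3, a matrix protease, had 1 and 0 recovered reads in parental and 43 and 51 for MLL1-KO2. Of 11 EGR1 target genes tested, 3 were lower and 1 higher in each SAP30-KO line, where EGR1 itself was highest, 5 were lower in each SIN3A/3B-DKO line with 2 higher in SIN3A/3B-DKO1 and 1 in SIN3A/3B-DKO2, and 2 were lower and 4 higher in each MLL1-KO line. VEGFA rose in all 6 lines, from 72.1 and 73.4 TPM to 104 to 248 TPM (0.59 to 1.72), F3, which encodes tissue factor, was lower in all 6, from 445 and 418 TPM to 101 to 277 TPM, and IGF2 was lower in all 6 (-2.88 to -1.52). PDGFB was lower in the SAP30-KO and SIN3A/3B-DKO lines, from 40 and 44 reads to 2 to 11, and higher in MLL1-KO1 (0.69).

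Of 30 MYC target genes tested, 0 to 3 were called higher and 1 to 4 lower in a line, with list medians of -0.09 to 0.13, and in SIN3A/3B-DKO1, where MYC was called, 1 was lower and the median was -0.04. The largest counts, 3 lower in each SAP30-KO line, 3 higher in MLL1-KO1, and 4 lower in MLL1-KO2, stand against 7.86%, 8.12%, 6.89%, and 14.9% of all genes. CCND2, encoding cyclin D2, and TERT, encoding telomerase, were lower in 5 lines each. CCND2 had 75 and 84 reads in parental and 3 to 18 across the libraries of SAP30-KO and SIN3A/3B-DKO, and TERT had 53 and 39 reads in parental and at most 1 read in each MLL1-KO library. TFRC, the transferrin receptor, was lower in 3 lines (-1.01 to -0.67), and DKC1, a small nucleolar RNA protein, was higher in MLL1-KO1 (0.70). Of 10 genes for protein turnover of JUN and MYC tested, DET1, part of a ubiquitin ligase for JUN, was lower in 4 lines (-0.79 to -0.63), USP28, which stabilizes MYC, was lower in 3 (-0.79 to -0.77), and USP36 was higher in 2 (0.68 and 0.78). Protein was not measured in these libraries.

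**Figure D5:**
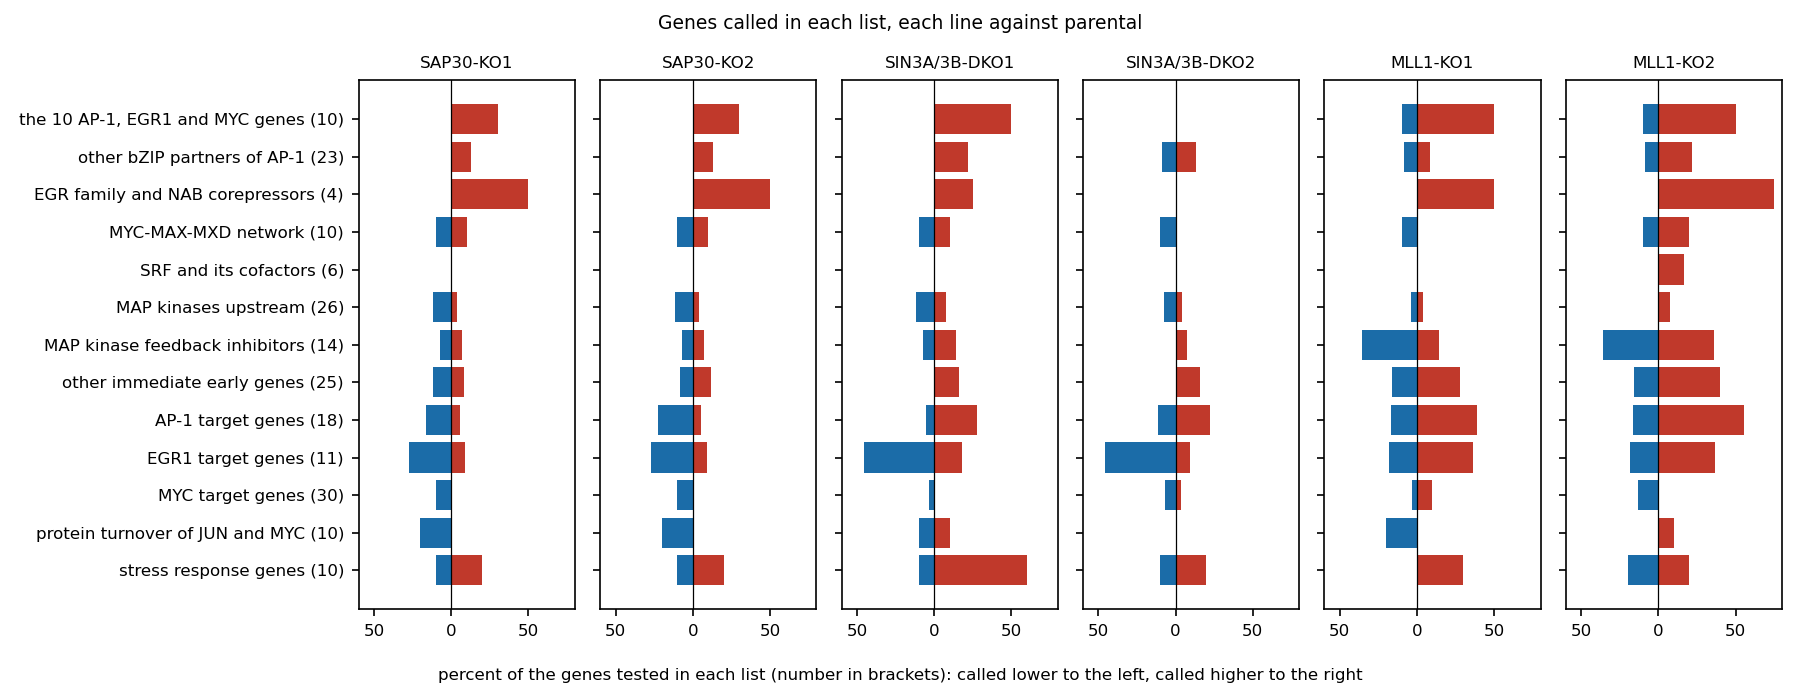
Percent of the genes tested in each list (x axis, number tested in brackets) that were called higher (right, red) or lower (left, blue) than parental in each of the 6 lines (panels). The AP-1 target genes had their highest share called higher in MLL1-KO2, the stress response genes in SIN3A/3B-DKO1, and at most 4 of the 30 MYC target genes were called in a direction in any line.

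Among the 10 stress response genes, TRIB3, a pseudokinase induced by ATF4 and DDIT3, rose in all 6 lines, most in SIN3A/3B-DKO1, from 26.3 and 27.9 TPM in parental to 84.7 and 89.1 (log2 fold change 1.66), against 0.70 to 1.05 in the other lines. HSPA1A, a heat shock protein, was lower in 5 lines (-1.91 to -0.60), HSPA6 was higher in 5 from few reads (6 and 4 in parental), and HMOX1, heme oxygenase 1, was higher in SIN3A/3B-DKO1, MLL1-KO1, and MLL1-KO2 (0.75, 0.89, and a larger change in MLL1-KO2), the lines in which FOS and FOSB were also called. The list as a whole had medians of 0.67, 0.31, and -0.17 in these lines, and 0.21 to 0.24 in the others. The FOS and FOSB calls in SIN3A/3B-DKO1 and MLL1-KO2 each ended when a parental library was left out. The part of stress in these FOS and FOSB levels was not tested.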

How the data were processed

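RNA-Seq libraries of 7 groups of MDA-MB-231 cells, 2 each, were used. Per the labels, RNA was extracted with an RNeasy kit, libraries were made with the KAPA mRNA HyperPrep kit, and they were sequenced on an Illumina NextSeq instrument. The submitters' processing notes name FastQC 0.11.2, TopHat, featureCounts, and hg19, and the strand setting of the counting is not given in the sources used here. The authors deposited a single table described as RPKM, but each of its 14 columns summed to 1000000, so the values were treated as TPM, transcript abundance scaled to a fixed library total. Low values were whole multiples of the worth of 1 read, which gave whole reads for 18519 of 18519 genes (100.0%, tolerance 0.02) and 18415036 to 23162682 reads per library, and these served only as depth and in an alternative. Date-like strings stood in place of 28 gene names and were kept under those strings.

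From the deposited TPM, limma 3.58.1 (R 4.3.3) was run with a mean variance trend on log2(TPM + 0.5) over all 14 libraries with 7 group means, on the 13540 genes at 1 TPM or more in at least 2 libraries, with Benjamini-Hochberg adjustment over all of them. A gene was called at an adjusted p under 0.05 and a change of at least 1.5-fold. The log2(TPM + 0.5) scale understates the change of low genes. On simulated data for SAP30-KO1 against parental (13161 genes), 199 of 200 changed genes were recovered and 8 others called. GRCh37 positions were found for 17029 genes, and RefSeq promoters for 8 of the 10 members, FOSL1 and MYC not being among them. Genes named beside the members were those most alike by Pearson correlation for each called member, and at most 4 genes of each list, those called in the same direction in the most lines, with ties broken by the mean absolute log2 fold change. The members and lists were chosen with earlier results of these data known. Same-numbered libraries did not deviate together (mean correlation 0.01, from -0.07 to 0.08 over 21 pairs of groups), so the numbers were not used to pair them. Alternatives changed the pseudocount, the filter, the scaling, the fold minimum, the libraries fitted, the tool (voom), and the neighbouring genes subtracted.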

Additional observations from a re-analysis of the deposited data

Results flagged for a closer look

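Differences in effect between genotypes, each tested in limma on the mean of both lines, passed for 12 combinations of gene and genotypes, and 1 gene differed between lines of a genotype. All libraries of the groups compared enter each value, and all values are log2 differences with adjusted p from limma. Against SAP30-KO, SIN3A/3B-DKO was higher for ATF3 (0.75, adjusted p = 0.000968) and MYC (0.64, adjusted p = 1.97e-06) and lower for EGR1 (-0.68, adjusted p = 2.71e-05). Against SAP30-KO, MLL1-KO was higher for FOS (0.59, adjusted p = 0.000525), FOSB (0.79, adjusted p = 0.000447), FOSL1 (0.94, adjusted p = 2.31e-10), and MYC (0.62, adjusted p = 8.29e-07) and lower for FOSL2 (-1.02, adjusted p = 4.79e-11) and EGR1 (-0.63, adjusted p = 2.10e-05). Against SIN3A/3B-DKO, MLL1-KO was higher for JUN (0.87, adjusted p = 1.49e-10) and lower for FOSL2 (-0.97, adjusted p = 6.06e-11) and ATF3 (-1.30, adjusted p = 7.20e-06). ATF3 was lower in MLL1-KO2 than in MLL1-KO1 (-0.75, adjusted p = 0.00944). Under the alternatives, the calls of FOS, FOSL1, and EGR1 between MLL1-KO and SAP30-KO, of MYC between SIN3A/3B-DKO and SAP30-KO, and of ATF3 between the MLL1-KO lines ended in at least 1 setting, beside the 2-fold minimum, where only FOSL2 between MLL1-KO and SAP30-KO and ATF3 between MLL1-KO and SIN3A/3B-DKO kept theirs.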

How the results depend on the processing

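Over 60 combinations of gene and line and 23 alternatives, 1339 of 1380 values kept their direction and their side of the threshold, 17 lost the call, 6 gained it, and 18 turned direction. The 18 were not called either way. With the running median of neighbours subtracted, FOSL1 turned to 0.12 and 0.14 for SAP30-KO (line 1 before 2) and -0.03 in SIN3A/3B-DKO2, JUND to -0.06 in SIN3A/3B-DKO1, -0.03 in SIN3A/3B-DKO2, and -0.08 in MLL1-KO1, MYC to -0.02 in SIN3A/3B-DKO2, and FOSB to -0.04 in SAP30-KO2. FOSL1 in SIN3A/3B-DKO2 also turned to -0.03 with quantile normalization, -0.02 with median-ratio scaling, -0.01 without parental replicate 2, and -0.05 without SIN3A/3B-DKO2 replicate 1. Leaving out 1 library at a time, FOS ranged from -0.06 to 0.35 in SAP30-KO2 and -0.05 to 0.36 in SIN3A/3B-DKO2 (lowest without parental replicate 1), FOSB from -0.23 to 0.44 and -0.28 to 0.39 in the SAP30-KO lines (lowest without parental replicate 2), and ATF3 in SAP30-KO1 from -0.07 to 0.01 (highest without parental replicate 2, and 0.00 without SAP30-KO1 replicate 2). Of these, the subtracted values of FOSL1 in the SAP30-KO lines passed adjusted p under 0.05 in both directions. With a 2-fold minimum, 1 of the 10 genes was called in SAP30-KO1, 0 in SAP30-KO2, 0 in SIN3A/3B-DKO1, 2 in MLL1-KO1, and 3 in MLL1-KO2. At 2-fold, 799, 800, 821, 704, 1476, and 1603 of all genes were called in the 6 lines (SAP30-KO, SIN3A/3B-DKO, then MLL1-KO, line 1 before 2), 0 of the 10 differed between the MLL1-KO lines, 0 between SAP30-KO and SIN3A/3B-DKO, 1 between SAP30-KO and MLL1-KO, and 1 between SIN3A/3B-DKO and MLL1-KO. With no fold minimum, 6, 7, 10, and 4 of the 10 passed in the first 4 of these lines, and 6904, 6997, 7589, 6714, 8188, and 8692 of all genes in the 6, while 6 of the 10 differed between the SIN3A/3B-DKO lines, 6 between the MLL1-KO lines, and 8, 10, and 6 between genotypes. For these differences between lines and between genotypes, the share of all genes with no fold minimum is not given here. Both settings differ by construction in the fold asked for. For the settings that follow, the cause was not tested. Median-ratio scaling gave 1 between the SIN3A/3B-DKO lines and 5 between SIN3A/3B-DKO and MLL1-KO, fitting only the groups compared gave 0 between the MLL1-KO lines, and voom gave 3 between the SIN3A/3B-DKO lines. With the running median of neighbours subtracted, 1350 and 1383 of all genes were called in the SAP30-KO lines, 3 of the 10 in SIN3A/3B-DKO1, and 5 between SIN3A/3B-DKO and MLL1-KO.

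Leaving out 1 library at a time gave 0 to 1 of the 10 in SIN3A/3B-DKO2 (FOSB without parental replicate 1, ATF3 without SIN3A/3B-DKO2 replicate 2), 0 to 4 between the SIN3A/3B-DKO lines, and 0 to 1 between the MLL1-KO lines. Calls that also ended were FOS in MLL1-KO2 without its replicate 1 (0.56), FOSB in MLL1-KO2 with a pseudocount of 1 (0.55), with only the groups compared (adjusted p = 0.0866 from limma), and without its replicate 2 (adjusted p = 0.0549), and FOS in SIN3A/3B-DKO1 with the running median subtracted (0.58). Calls gained were FOSL1 in MLL1-KO1 (0.66 with median-ratio scaling, 0.63 with voom) and EGR1 in SIN3A/3B-DKO1 (0.67 without parental replicate 1, 0.59 with voom). With the replicate number as a block, 3, 3, 5, 0, 6, and 6 of the 10 and 2119, 2114, 2230, 1840, 3141, and 3410 of all genes were called in the 6 lines, and the pairing changed no call of the 10. FOS, FOSB, EGR1, and ATF3 rest on 35 to 351 reads a library, where counting error is largest.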
